A study of Mus musculus with 24 samples.

Results

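Rps19, a protein of the small ribosomal subunit, was depleted by shRNA in mouse erythroblasts, and the RNA on polysomes was compared with the RNA that sediments more slowly in the same cells. The comparison uses 6 of the 24 arrays of the series, chosen by their sample titles: a polysomal and a subpolysomal pool from each of 3 sucrose gradients, which the labels call biological replicates. Cells with the Rps19 shRNA were harvested 3 days after lentiviral delivery. They are set against cells with a control construct harvested at the same time (titled ev, with the shRNA given as sc, and read here as the control) and against untransduced cells (titled wt), each again with 3 gradients and 6 arrays. All groups share an immortalized erythroblast line, grown without serum in the presence of Epo, SCF and Dex and treated with cycloheximide, which arrests ribosomes on their mRNAs, before freezing. A further group with an Rpl11 shRNA, also 3 gradients and 6 arrays, enters the fit only to estimate the spread. On 5 of its 6 arrays Gapdh probe sets at the 3′ end exceeded those at the 5′ end by 0.99 to 3.90 on the log2 scale, and without these gradients 4309 genes in place of 4037 lay toward a pool with the Rps19 shRNA, and 85 in place of 96 differed from the control construct. How the line was immortalized and whether untransduced cells remained among those with a construct are not given in the sources used here. The sample names of Rps19 replicate 3 hold the word puro, with no explanation. In each gradient the fractions from the polysomes as far as the 80S peak, the peak of single ribosomes, formed the polysomal pool, all other fractions formed the subpolysomal pool, and 7 µg of RNA is given for the extraction.

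In a growing cell, an mRNA carried by several ribosomes at once sediments with the polysomes, and an mRNA held in a messenger particle or on free subunits stays near the top of the gradient. Translation starts when the small subunit, loaded with initiator tRNA and initiation factors, scans from the cap to a start codon. The mRNAs of ribosomal proteins and of several translation factors begin with a C followed by a run of pyrimidines, the terminal oligopyrimidine (TOP) tract, and move between the pools together when growth signals change. Heterozygous loss of RPS19 in humans causes Diamond-Blackfan anaemia, in which red cell precursors are lost in the bone marrow.

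Start regions of 4 TOP-type genes at the subpolysomal end of the ranking and of a pair of genes of the same list without a tract are shown because the class is defined by its first bases. Each window runs from 12 bases before the annotated RefSeq start to 18 bases from it, on the transcribed strand (GRCm38.p6), and capitals mark a C followed by at least 5 more pyrimidines that begins within 10 bases of that start. Where a gene has several annotated starts, the start with the longest tract was used. Rps19 lies at chr7:24884901-24884930 (+), Rps2, another small subunit protein, at chr17:24720051-24720080 (+), the elongation factor Eef1a1 at chr9:78481707-78481736 (-) and Rps24 at chr14:24490666-24490695 (+). Eef2, the translocation factor of elongation, lies at chr10:81176619-81176648 (+), and Ybx1, which packages mRNA, at chr4:119294496-119294525 (-).
Rps19: ggagcggggtgtggagggCTCTCCCacgcg
Rps2: cagtcgagatctcgcgCTTCTTggagcact
Eef1a1: ggctccgCCCTCTTCCCgagggtgggggag
Rps24: gcgctggggtCCTTCCTTgcgcgttgatat
Eef2: aaaaggccgggcgttgacgtcagcggtctc
Ybx1: tcccgcccgtcccgccattctcgctagttc

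The measure throughout is the pool ratio, the log2 polysomal minus the log2 subpolysomal array signal of a gene within 1 gradient, so that a positive value means more signal in the polysomal pool. Group values are means of 3 gradients with a standard error (SE) from limma, and a gene lay toward a pool when its adjusted p was under 0.05 over 11045 genes. Every array had been scaled to the same trimmed mean, so 0 marks the average of the arrays and not an equal division of molecules, and a shift of all mRNA between pools leaves no trace. Of the 11045 genes, 36.6% lay toward a pool under the Rps19 shRNA: 1942 (17.6%) toward polysomes and 2095 (19.0%) toward the subpolysomal pool. The median gene had a ratio of −0.08, the middle of the distribution ran from −0.48 to 0.30 (quartiles), and the median SD between the 3 gradients was 0.227. A ratio of at least 1 in size was reached by 255 genes toward polysomes and 640 toward the subpolysomal pool, and a ratio of at least 2 by 9 and 70. The subpolysomal tail was thus the longer one. When arrays were centred on their median instead, the median gene stood at 0.57 and 5932 genes lay toward polysomes against 353, or 94.4% of those called against 48.1%. Positions relative to the median of all genes are not moved by such centring, and list medians given below are read against that median. Counts toward each pool are taken against 0 and do move. For 44 mitosis genes, they went from 6 toward polysomes and 9 toward the subpolysomal pool to 27 and 0 under median centring. Of the genes named below, Bag1, Rps24, Eif1b, Eif3m, Qars, Stat5a, Odc1, Ptbp1, Siva1, Ddb2, Ddit3, Hspa8, Polr3d, Lsm14a, Ttk, Srebf1, Oas2, Gpx1 and E2f1 lay toward the subpolysomal pool with the deposited scaling and missed the threshold under median centring, with ratios between −0.88 and −0.02.

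Erythroid markers were detected. Of 19 erythroid markers 13 have a probe set and 12 passed the filter, with summed signals of 42545 to 86057 per array with the Rps19 shRNA, 45899 to 112397 with the control construct and 40309 to 113383 in untransduced cells. Markers of other cells passed the filter in 5 of 19 cases for macrophages and granulocytes, 8 of 10 for megakaryocytes, 5 of 10 for mast cells and basophils, 2 of 14 for lymphocytes and 4 of 15 for fibroblasts and endothelium. Their sums on the Rps19 shRNA arrays, which are of other probe sets and are not comparable between lists, were 856 to 1827 for macrophages and granulocytes, 2909 to 6656 for megakaryocytes, 1297 to 4952 for mast cells and basophils, 551 to 909 for lymphocytes and 719 to 1149 for fibroblasts and endothelium. Gapdh probe sets at the 3′ end over those at the 5′ end, a sign of RNA integrity, had a log2 ratio that ran from −0.42 to 0.42 on the 6 arrays, with the highest value in the polysomal pool of replicate 3. Fewer RNA molecules of a gene per cell and fewer cells that carry it cannot be told apart in these bulk pools.

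The knockdown itself was visible in both pools. Rps19 had polysomal signals of 10021, 10176 and 7844 in the 3 gradients with the Rps19 shRNA, against 24510, 25992 and 27030 with the control construct. Its subpolysomal signals were 25868, 25376 and 19247 with the Rps19 shRNA, against 74091, 64126 and 71105 with the control construct. In each pool every value with the shRNA lay below every control value, and the mean level over both pools was lower by 1.53 on the log2 scale (difference −1.53, SE 0.16, adjusted p = 0.00371). When only the 2 groups compared entered the fit, the adjusted p was 0.0504. The Rps19 mRNA that remained kept its place: its pool ratios were −1.37, −1.32 and −1.29, against −1.60, −1.30 and −1.40 with the control construct and −1.90, −1.67 and −1.33 in untransduced cells. The ratio lay toward the subpolysomal pool (−1.33, SE 0.13, adjusted p = 0.000104), at percentile 4.87 of all genes. Rpl11, a large subunit protein, had ratios of −0.44, −0.46 and −0.36, against −1.10, −0.87 and −0.94 with the control construct. Its mean of −0.42 (SE 0.11, adjusted p = 0.0155) turned positive under median centring (0.23) and under quantile normalization of all arrays (0.25), and it missed the threshold without any 1 of the 3 gradients (adjusted p 0.0514 to 0.0793). Bag1, a cofactor of Hsp70, had ratios of −0.75, −0.65 and −0.81 with the Rps19 shRNA, against 0.19, −0.09 and 0.01 with the control construct and 0.02, 0.21 and 0.01 in untransduced cells. The groups did not overlap, but the difference from the control construct missed the threshold (−0.78, SE 0.17, adjusted p = 0.0665 in limma). Within the Rps19 shRNA gradients Bag1 lay toward the subpolysomal pool (−0.74, SE 0.12, adjusted p = 0.00124), and missed the threshold under median centring (−0.09). Gata1, the master regulator of erythroid genes, stood at −0.40, −0.20 and −0.33 with the Rps19 shRNA. Its mean of −0.31 (SE 0.11, adjusted p = 0.0478) missed the threshold when any 1 of the 3 gradients was left out (adjusted p 0.0912 to 0.185) and was 0.34 under median centring.

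**Figure D1:**
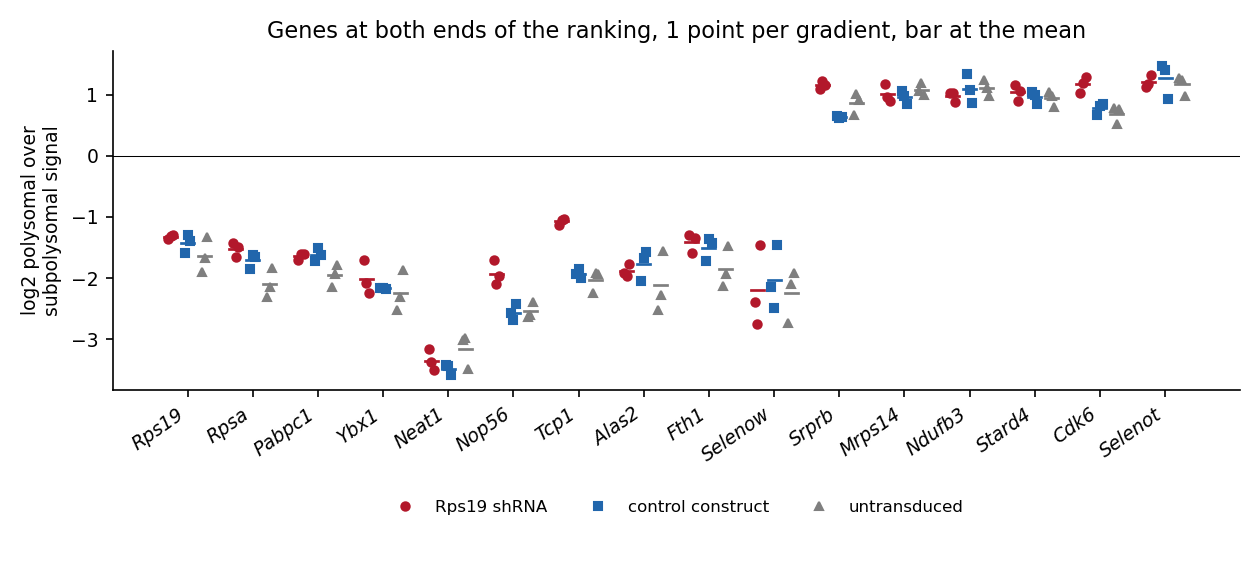
Log2 polysomal over subpolysomal signal (vertical axis) of 16 genes from both ends of the ranking, with 1 point per gradient and a bar at the mean of 3, in cells with the Rps19 shRNA (circles), with the control construct (squares) and untransduced (triangles). Rps19 with the Rps19 shRNA lies between −1.37 and −1.29, and Neat1 between −3.51 and −3.16.

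Ribosomal protein mRNAs lay toward the subpolysomal pool almost as a block. Of 32 small subunit proteins 21 were tested, and 19 of them lay toward the subpolysomal pool and 0 toward polysomes, with a median of −0.91 against −0.08 over all genes. Of 48 large subunit proteins 22 were tested, and 20 lay toward the subpolysomal pool and 0 toward polysomes, with a median of −0.77. The small subunit medians of the 3 gradients were −0.91, −0.96 and −0.82. The lowest of the small subunit was Rpsa, which doubles as the laminin receptor, with mean signals of 26574 in the polysomal and 76434 in the subpolysomal pool (ratios −1.43, −1.66 and −1.50, adjusted p = 4.23e-05). Rps2 had ratios of −0.97, −1.05 and −1.01. Rps24, which is mutated in some patients with Diamond-Blackfan anaemia, had −0.93, −0.96 and −0.86. In the large subunit, Rplp0 of the stalk had −1.09, −1.32 and −1.20. Rpl4 had −0.91, −1.06 and −0.97, and Rpl10a had −0.92, −1.17 and −0.94. The 4 members that missed the threshold, named after their values were seen, were Rps25 (0.11), Rps27 (−0.08), Rpl14 (−0.30) and Rpl27a (−0.49).

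These are among the brightest probe sets of the array, and their size depends on how the arrays are scaled. In the Rps19 shRNA samples the highest signal of an array lay between 41235 and 44539 in the polysomal and between 74690 and 82533 in the subpolysomal pool. Of the tested members, 17 of the small and 17 of the large subunit lay on average at 0.4 or more of that highest signal. When all arrays were forced to one distribution by quantile normalization, 4 small subunit genes lay toward the subpolysomal pool and 0 toward polysomes, with a list median of −0.12, and for the large subunit 4 and 2 genes did, with −0.07. Both medians then still lay below that of all genes, by 0.17 and 0.13 in place of 0.83 and 0.69 (differences −0.174 and −0.126 in place of −0.826 and −0.689). With quantile normalization within each pool the counts were 19 of 21 and 20 of 22, as with the deposited scaling. The part of signal flattening in these ratios was not tested.

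The other TOP-type mRNAs followed the ribosomal proteins. Of 24 listed elongation factors and other TOP mRNAs 19 were tested, and 16 lay toward the subpolysomal pool and 0 toward polysomes, with a median of −0.96. The median under quantile normalization of all arrays was −0.71, and 7 of these genes were near the ceiling. Ybx1 was the lowest, with ratios of −1.70, −2.09 and −2.24 (mean −2.01, SE 0.14, adjusted p = 3.87e-05). Pabpc1, the poly(A)-binding protein, had −1.71, −1.61 and −1.61, and Eef2 had −1.45, −1.61 and −1.67. Eif3h, a subunit of the initiation factor that holds the scanning small subunit, had −1.21, −1.46 and −1.15, against −1.91, −2.00 and −1.96 with the control construct. The 3 members that missed the threshold, named after their values were seen, were the nucleolar chaperone Npm1 (0.08), Btf3, which binds nascent chains (0.21), and the splicing factor Hnrnpa1 (0.34). A tract of the kind printed above was present in 27 of the 51 ribosomal protein and other TOP genes with a start sequence (52.9%), in 23.8% of all 8992 tested genes with one, and in 19.2% of all 32851 start windows. The shares of genes use the start with the longest tract, so the share of single windows is not the same measure. Among the 51 ribosomal protein and other TOP genes, the 27 with a tract had a median ratio of −0.84 and the others −0.88. Among all other genes the medians were −0.09 with and −0.07 without a tract. Genes with and without a tract thus had similar medians on each side of the list's border, with no test made. Annotated starts can lie some bases from the starts used in these cells, and no match says only that the letters are not in this window.

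RNAs without a protein product were among the lowest ratios, beside protein-coding genes. Of 40 listed snoRNA hosts and nuclear long non-coding RNAs 25 were tested, and 16 lay toward the subpolysomal pool and 2 toward polysomes, with a median of −1.47, and its counts were 17 and 3 under quantile normalization of all arrays. Snhg3, a snoRNA host, had the lowest ratio of all named genes, with −4.27, −4.99 and −4.31 (mean signals of 69.8 polysomal and 1778 subpolysomal). Neat1, the scaffold of nuclear paraspeckles, had −3.16, −3.38 and −3.51, against −3.42, −3.45 and −3.58 with the control construct. Dancr, another snoRNA host, had −2.37, −2.30 and −1.87. Malat1, a nuclear speckle RNA, had −1.50, −1.88 and −1.44, against −1.94, −2.65 and −2.46 with the control construct, and all 7 of its probe sets above the filter lay toward the subpolysomal pool, from −5.64 to −1.20. A probe set annotated to the miRNA gene Mir1949 had −3.36, −4.23 and −5.21, and Rab26os, an antisense transcript, had −3.80, −3.73 and −3.42. Coding genes among the 10 lowest named ratios included the endothelin Edn3 (−3.14), the membrane protein Tmem134 (−3.12), Tcl1b3 (−2.85), Zbed6 (−2.83) and Tmem260 (−2.80), all below Dancr. Edn3 and Tcl1b3 each rest on 1 probe set of the kind that can cross-hybridize. The probe sets of Edn3, Zbed6 and Tmem260 are dim, with mean log2 signals of 7.24, 6.96 and 6.85. The 2 list members toward polysomes were Kcnq1ot1 (3.08, 2.70 and 3.69), an antisense RNA of the imprinted Kcnq1 locus with the highest ratio of all named genes, and Tug1 (1.01), named after its value was seen. The second Kcnq1ot1 probe set had a ratio of 1.08 (adjusted p = 0.295). The array does not tell an intact RNA from a fragment that carries the probed stretch.

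Long non-coding genes as a type lay at the subpolysomal end more often than protein-coding ones. Of the 382 tested genes that RefSeq types as long non-coding, 140 (36.6%) lay toward the subpolysomal pool and 15 (3.93%) toward polysomes, with a median of −0.56. Of the 10554 protein-coding genes, 1919 (18.2%) lay toward the subpolysomal pool and 1917 (18.2%) toward polysomes, with a median of −0.06. Non-coding RNAs are dimmer (median log2 signal 7.23 against 9.45), and over all genes the dim ones lean to the subpolysomal pool. The median ratio of all genes was −0.49 in the dimmest and 0.11 in the brightest of 5 equal groups of genes. Among non-coding genes alone it was −0.60 in the dimmest and −1.19 in the brightest group. Within these 5 groups, the share of non-coding genes toward the subpolysomal pool was 29.7% of 195 genes, 35.1% of 111, 51.3% of 39, 56.2% of 16 and 66.7% of 21, from the dimmest to the brightest. For protein-coding genes in the same groups it was 18.4%, 19.9%, 17.0%, 15.1% and 20.6%. In all 5 groups the non-coding share was the higher one, though the group with 16 non-coding genes is thinly filled. Call rates also followed signal: 1.9% of the dimmest and 31.7% of the brightest group of all genes lay toward polysomes. Toward the subpolysomal pool the shares were 19.5% and 21.1%. List shares called in either direction are set below against all genes and not against genes of like signal, unless a signal group is named.

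**Figure D2:**
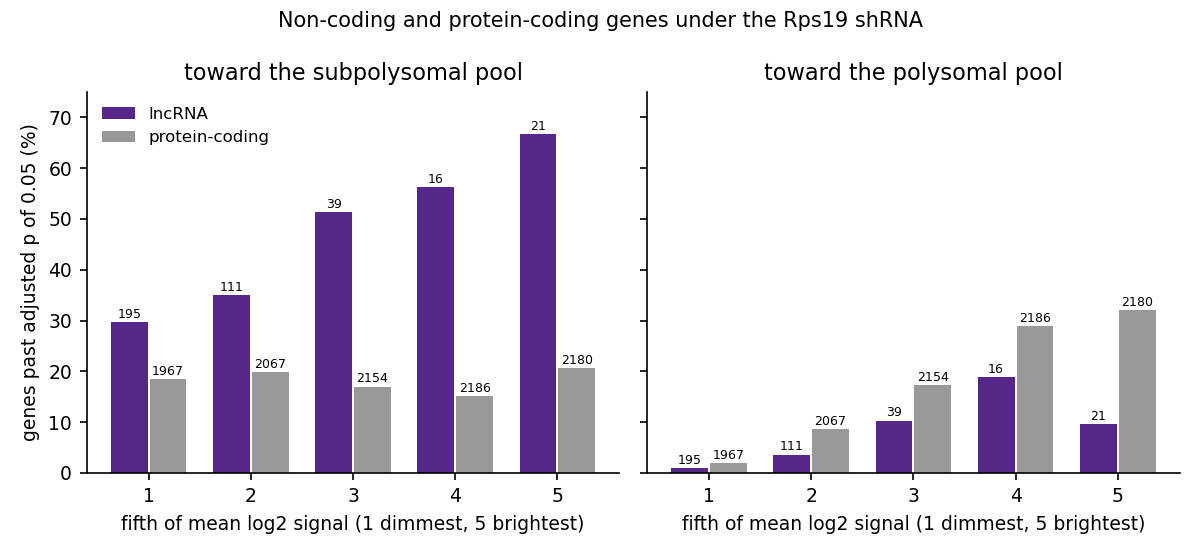
Share of long non-coding and protein-coding genes (vertical axis, percent) that passed an adjusted p of 0.05 toward the subpolysomal pool (left) and toward the polysomal pool (right) with the Rps19 shRNA, in 5 equal groups of mean log2 signal, with the number of genes above each bar. In the brightest group 66.7% of 21 non-coding and 20.6% of 2180 protein-coding genes lay toward the subpolysomal pool.

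At the polysomal end the extremes were fewer, and some were insecure as well. After Kcnq1ot1 the highest ratios belonged to Slc44a2, a choline transporter-like protein (3.09, 2.98 and 3.34), and Preb, a regulator of vesicle budding from the ER (2.86, 3.16 and 3.05). In both genes the value came from a probe set of the kind that can cross-hybridize, and the other probe sets of the same gene lay at 0.01 and −0.33 for Slc44a2 and at 0.28 and −0.10 for Preb. The purinergic receptor P2ry1 had 2.25, 3.56 and 2.11 at mean signals of 229 polysomal and 33.2 subpolysomal. Sp4, a transcription factor, had 1.59, 1.67 and 3.60, while its second probe set lay at −2.17, so its ratio averaged over probe sets was 0.06. Over the whole array, 1295 genes had at least 2 probe sets past the threshold, and in 284 of them (21.9%) these lay on both sides. The ratio of 1 probe set is therefore not always that of the gene's other probe sets. At the other end, Tmem134, a membrane protein, lay at −3.12 and −4.06 by its 2 probe sets.

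The machinery of initiation was spread over both sides. Against 36.6% of all genes, 46.9% of initiation factors, 38.8% of ribosome biogenesis factors and 36.8% of aminoacyl-tRNA synthetases were called in either direction. The median signal of the initiation factors falls in the brightest of the 5 signal groups. There 31.7% of all genes lay toward polysomes and 21.1% toward the subpolysomal pool. The median signals of the other lists fall in the next group, with 28.9% and 15.5%. Of 32 tested initiation factors (39 listed) 3 lay toward polysomes and 12 toward the subpolysomal pool, with a median of −0.07 against −0.08 over all genes. Eif3l, a subunit of eIF3, had −1.14, −1.13 and −0.76, and Eif3m, another, had −0.85, −0.62 and −0.52, against −1.84, −1.51 and −1.42 with the control construct. As the mean of its probe sets Eif3m stood at −0.39 (adjusted p = 0.0935). Eif1ax, which helps to open the small subunit for scanning, lay toward polysomes (0.59, 0.60 and 0.62). Eif1b, a paralog of the start codon gatekeeper, had −0.57, −0.65 and −0.80, against 0.71, 0.40 and 0.53 with the control construct, and all values of the groups stood on opposite sides of 0. Of 80 tested ribosome biogenesis factors (81 listed) 8 lay toward polysomes and 23 toward the subpolysomal pool, with a median of −0.17. Nop56, a core protein of the particles that methylate rRNA, was the lowest with −1.71, −2.10 and −1.97, against −2.58, −2.69 and −2.43 with the control construct. Ppan and Nsa2, which act in large subunit assembly, had means of −1.33 and −1.49. Ebna1bp2, another large subunit factor, stood opposite with 1.01, 1.19 and 0.96, although its dim second probe set read −1.08. Of 38 tested aminoacyl-tRNA synthetases and partners (40 listed) 3 lay toward polysomes and 11 toward the subpolysomal pool, with a median of −0.26, among them Qars (−1.03), Cars (−1.13) and the mitochondrial Sars2 (−1.18), which charge glutamine, cysteine and serine tRNAs. Relative to the median of all genes, the medians of the initiation, biogenesis and synthetase lists were 0.01, −0.09 and −0.18, and under quantile normalization of all arrays −0.20, −0.26 and −0.23.

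Genes for mitochondrial ribosomes and the respiratory chain lay on both sides, with medians slightly above 0. Of 76 tested mitochondrial ribosomal proteins (78 listed) 17 lay toward polysomes and 9 toward the subpolysomal pool, with a median of 0.20, or 0.28 above that of all genes (0.07 above it under quantile normalization of all arrays). In all 34.2% of the list was called, against 36.6% of all genes, and at its median log2 signal of 11.7 the share toward polysomes among all genes was 31.7%. Mrps14 had 1.18, 0.96 and 0.90, Mrps28 had 0.93, 1.21 and 0.90, and Mrpl37 had 1.15, 0.85 and 0.78. Mrps36 lay toward the subpolysomal pool with −0.58, −0.76 and −0.60, against 0.06, 0.11 and 0.15 with the control construct, and its ratio was 0.000419 under median centring. Of 72 tested respiratory chain and ATP synthase genes (78 listed) 21 lay toward polysomes and 16 toward the subpolysomal pool, with a median of 0.06. In all 51.4% of these genes were called. Their median log2 signal of 13.6 falls in the brightest signal group. In that group 31.7% of all genes lay toward polysomes and 21.1% toward the subpolysomal pool. Under quantile normalization within each pool the counts were 15 and 22 and the median −0.04. The complex I subunits Ndufb3, Ndufs4 and Ndufb6 had mean ratios of 0.98, 0.90 and 0.82. The medians of cytosolic and mitochondrial ribosomal protein mRNAs thus lay on opposite sides of that of all genes.

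Genes for protein import into the ER and for folding there had a median on the polysomal side. Of 61 tested (64 listed) 22 lay toward polysomes and 9 toward the subpolysomal pool, where 17.6% of all genes and 31.7% of the brightest of the 5 signal groups lay toward polysomes. The median signal of the list falls in that brightest group. The list had a median of 0.17 and gradient medians of 0.21, 0.22 and 0.19. Averaging all probe sets of a gene gave 16 and 11 and a median of −0.03, against −0.14 over all genes. Srprb, the membrane anchor of the signal recognition particle receptor, had 1.09, 1.22 and 1.16, against 0.65, 0.62 and 0.63 with the control construct. Emc3, of the complex that inserts membrane proteins, had a mean of 0.97, and Spcs3 and Spcs2 of the signal peptidase had 0.88 and 0.84. Of 48 tested proteasome genes (50 listed) 10 lay toward polysomes and 2 toward the subpolysomal pool, with a median of 0.18. The share of these genes called in either direction was below the 36.6% of all genes. Their median signal falls in the brightest group too, where 31.7% of all genes lay toward polysomes and 21.1% toward the subpolysomal pool. Against that group the share of proteasome genes was lower in each direction. The assembly chaperones Psmg2 (0.73, or 0.29 and not past the threshold as the mean of its probe sets) and Psmg3 (0.63) were the highest named, and the core subunit Psma1 had 0.56, 0.43 and 0.52, although its dim second probe set read −2.20. Cytosolic chaperones were split: 7 of 47 tested (49 listed) lay toward polysomes and 14 toward the subpolysomal pool, so that 44.7% were called. Their median log2 signal of 11.7 also falls in the brightest group, where 21.1% of all genes lay toward the subpolysomal pool. The chaperonin subunit Tcp1 had −1.14, −1.05 and −1.03, and the abundant Hsp70 Hspa8 had −0.84, −0.78 and −0.77. The prefoldin subunits Vbp1 and Pfdn6, which pass actin and tubulin chains to the chaperonin, lay toward polysomes with 0.97 and 0.83.

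**Figure D3:**
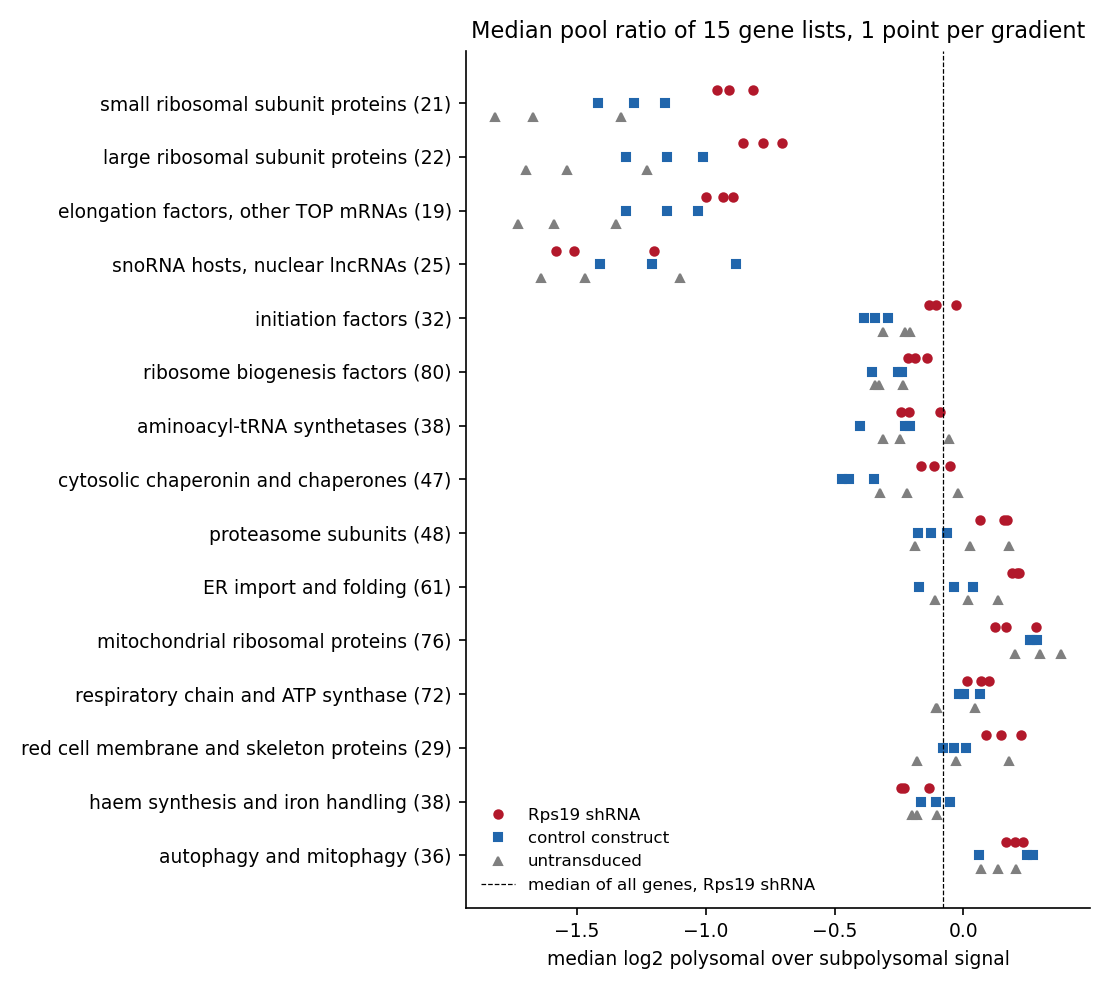
Median log2 polysomal over subpolysomal signal (horizontal axis) of 15 gene lists, with the number of tested genes in brackets and 1 point per gradient, for cells with the Rps19 shRNA (circles, top of each row), with the control construct (squares) and untransduced (triangles). The small subunit medians lie between −0.96 and −0.82 with the Rps19 shRNA, and the dashed line marks the median of all genes at −0.08.

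Erythroid genes did not form a block. Both tested globins lay toward polysomes, but from dim or cross-hybridizing probe sets: Hba-a2 had 2.50, 2.97 and 0.46 at a mean polysomal signal of 168, and missed the threshold without replicate 1 or without replicate 2 (adjusted p = 0.0586 and 0.0784). Hbb-b2 had 0.66, 0.46 and 0.76, while a second, dim probe set read −2.83. Of 29 tested red cell membrane and skeleton proteins (34 listed) 8 lay toward polysomes and 3 toward the subpolysomal pool, with a median of 0.16. In all 37.9% of that list was called, against 36.6% of all genes. Its median log2 signal of 11.1 is at the border of the upper signal groups, where 28.9% and 31.7% of all genes lay toward polysomes. Gypc, a glycophorin, had 0.97, 0.77 and 1.00, and the tropomyosin Tpm1 had 1.28, 0.98 and 0.58. Cd59a, which shields the cell from complement, had 1.22, 1.13 and 0.68, but its other probe set lay at −0.05, and quantile normalization of all arrays gave −0.03. Of 38 tested haem and iron genes (47 listed) 7 lay toward polysomes and 11 toward the subpolysomal pool, so that 47.4% were called in either direction. Alas2, the rate-limiting erythroid enzyme of haem synthesis, had −1.92, −1.97 and −1.77, against −2.05, −1.66 and −1.58 with the control construct. Fth1, the ferritin heavy chain, had −1.29, −1.59 and −1.35, and the iron exporter Slc40a1 had −0.65, −0.25 and −0.42. The mRNAs of these 3 carry an iron-responsive element near the cap, which binds iron regulatory proteins when iron is scarce. All 3 tested of 6 listed lay toward the subpolysomal pool, as did 19.0% of all genes. All 3 still did under quantile normalization of all arrays, but their median went from −1.41 to −0.55. Of the 3, 1 was near the ceiling. Slc40a1 missed the threshold without replicate 1 or without replicate 3 (adjusted p = 0.103 and 0.0583), and its ratio was 0.21 under median centring. Flvcr1, a haem exporter, lay toward polysomes (1.03), and Pcbp2, an iron chaperone that also binds RNA, toward the subpolysomal pool (−1.38).

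Regulators of the erythroid programme fell on both sides. Against 36.6% of all genes, 42.9% of erythroid transcription regulators were called in either direction. For growth factor and glucocorticoid signalling the share was 52.8%, and for the G1 list 48.5%. Of 35 tested erythroid transcription regulators (36 listed) 8 lay toward polysomes and 7 toward the subpolysomal pool, with a median of −0.08. Fli1 had 0.69, 0.78 and 1.13, although the mean of its probe sets was 0.12 (adjusted p = 0.481), Stat5a, which relays Epo signals, had −1.02, −0.68 and −0.81, and E2f4 had −1.03, −1.98 and −1.86. Myc stood at −0.51, −0.35 and −0.55, and at 0.18 under median centring. Of 36 tested genes of growth factor and glucocorticoid signalling (38 listed) 12 lay toward polysomes and 7 toward the subpolysomal pool. The Ras activator Sos1 (1.14) and the antiproliferative Btg1 (0.80, or 0.24 as the mean of its probe sets, not past the threshold) stood at the polysomal end and the PI3-kinase subunit Pik3cd at the other (−1.39). In the G1 list of 33 genes, all tested, 10 lay toward polysomes and 6 toward the subpolysomal pool. Cdk6 had 1.03, 1.20 and 1.29 and Ccnd2, cyclin D2, had 0.91, 1.37 and 0.84, while E2f1 had −0.91, −0.96 and −0.95.

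Stress and survival genes lay on both sides, and the share called in either direction was 46.4% of p53 targets, 42.4% of integrated stress response genes, 47.8% of mRNAs with upstream reading frames, 47.2% of autophagy genes, 32.1% of mRNAs with internal ribosome entry sites and 28.1% of apoptosis regulators, against 36.6% of all genes. Of 28 tested p53 targets (36 listed) 7 lay toward polysomes and 6 toward the subpolysomal pool. Trp53inp1, which promotes p53 activity, had a mean of 0.98 (0.32 and not past the threshold as the mean of its probe sets), and the damage sensor Ddb2 −1.03. Siva1, a proapoptotic protein, had −1.09, −1.02 and −0.98, against 0.42, 0.26 and 0.77 with the control construct. Of 33 tested genes of the integrated stress response (37 listed) 6 lay toward polysomes and 8 toward the subpolysomal pool. Ddit3, the CHOP factor whose upstream reading frame holds back its translation in unstressed cells, had −0.79, −0.70 and −0.71. Slc3a2, an amino acid transporter subunit, had −0.70, −0.50 and −0.54, and 0.07 under median centring, and Cebpg stood at 1.02 (0.30 and not past the threshold as the mean of its probe sets). Among 23 tested mRNAs with reported regulatory upstream reading frames (29 listed) 4 lay toward polysomes and 7 toward the subpolysomal pool. Ifrd1 (0.88) and, by 1 of its 3 probe sets, Azin1 (0.98, the others 0.41 and −1.25, mean of probe sets 0.05) were on the polysomal side and Odc1 (−0.84), the first enzyme of polyamine synthesis, on the other. Among 28 tested mRNAs with reported internal ribosome entry sites (35 listed) the counts were 2 and 7. Hif1a, an oxygen-regulated transcription factor, had 0.81, 1.00 and 1.66, but its other probe sets read 0.14 and −0.74 and their mean with it was 0.19 (adjusted p = 0.188). The RNA-binding Ptbp1 had −0.96, −0.76 and −0.84. Of 32 tested apoptosis regulators (40 listed) 7 lay toward polysomes and 2 toward the subpolysomal pool, with Bnip3 at 0.83, Bid at 0.56 and Bcl2l2 at −1.06. Of 36 tested autophagy genes (38 listed) the counts were 13 and 4. Fundc1, a mitophagy receptor, had 0.77, 0.76 and 0.78, and Atg2a, a lipid transfer protein, had −0.81, −1.44 and −1.26.

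Lists of the cell cycle, of RNA metabolism and of smaller pathways are given in brief. Against 36.6% of all genes, the share called in either direction was 28.8% for DNA replication, 34.1% for mitosis and 42.9% for RNA polymerase subunits. It was 44.0% for Sm and LSm proteins, 57.9% for selenoproteins, 34.5% for interferon response genes and 30.4% for cholesterol synthesis. Among all genes 17.6% lay toward polysomes and 19.0% toward the subpolysomal pool. Of 52 tested DNA replication genes (53 listed) 10 lay toward polysomes and 5 toward the subpolysomal pool, with the helicase subunit Mcm7 at −1.23, the polymerase Pold1 at −0.98 and the licensing inhibitor Gmnn at 0.91. Of 44 tested mitosis genes (45 listed) the counts were 6 and 9, with the checkpoint kinase Ttk at −1.01 and the kinetochore protein Spc24 at 0.77. RNA polymerase subunits gave 7 and 5 of 28 tested (31 listed), with Polr2h at 0.73 and Polr3d at −0.86, and Polr2e at 0.82 from a probe set whose dimmer partner read −1.16. Sm and LSm proteins gave 4 and 7 of 25 tested (32 listed), with Gemin7 at −1.33, Lsm7 at −1.28 and Lsm14a at −1.01. Of 19 tested selenoproteins (24 listed) 7 lay toward polysomes and 4 toward the subpolysomal pool, and both ends were far apart. Selenot of the ER had 1.12, 1.17 and 1.32, and Selenow, a small cytosolic selenoprotein, had −2.39, −2.75 and −1.46. Gpx1, the peroxidase near the ceiling of the array, stood at −0.75 and at −0.06 under quantile normalization of all arrays. Of 29 tested interferon response genes (42 listed) 1 lay toward polysomes, the kinase Eif2ak2 (0.97), and 9 toward the subpolysomal pool. Oas2 was the lowest (−1.53) at mean signals of 57.2 and 173. Without replicate 3 both missed the threshold (adjusted p = 0.0771 for Eif2ak2 and 0.0791 for Oas2). Of 23 tested cholesterol synthesis genes (28 listed) the counts were 3 and 4, with the sterol carrier Stard4 at 1.16, 0.90 and 1.06, the isomerase Ebp at 0.68 and the regulator Srebf1 at −0.80.

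Most of the ranking was shared with cells whose Rps19 was intact. Across the 11045 genes, which are not independent replicates, the mean ratios with the Rps19 shRNA and with the control construct had r = 0.728, and with the Rps19 shRNA and in untransduced cells r = 0.764. Single gradients with the Rps19 shRNA had r between 0.576 and 0.629 with each other and between 0.502 and 0.557 with those of the control construct. With the control construct 36.7% of genes lay toward a pool and in untransduced cells 40.9%. Of the 4037 genes called with the Rps19 shRNA, 2613 were also called with the control construct (64.7% of the first list and 64.5% of the second), and 2577 of these (98.6%) lay on the same side. For untransduced cells 2893 were called in both (71.7% and 64.1%), 2870 of them (99.2%) on the same side.

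**Figure D4:**
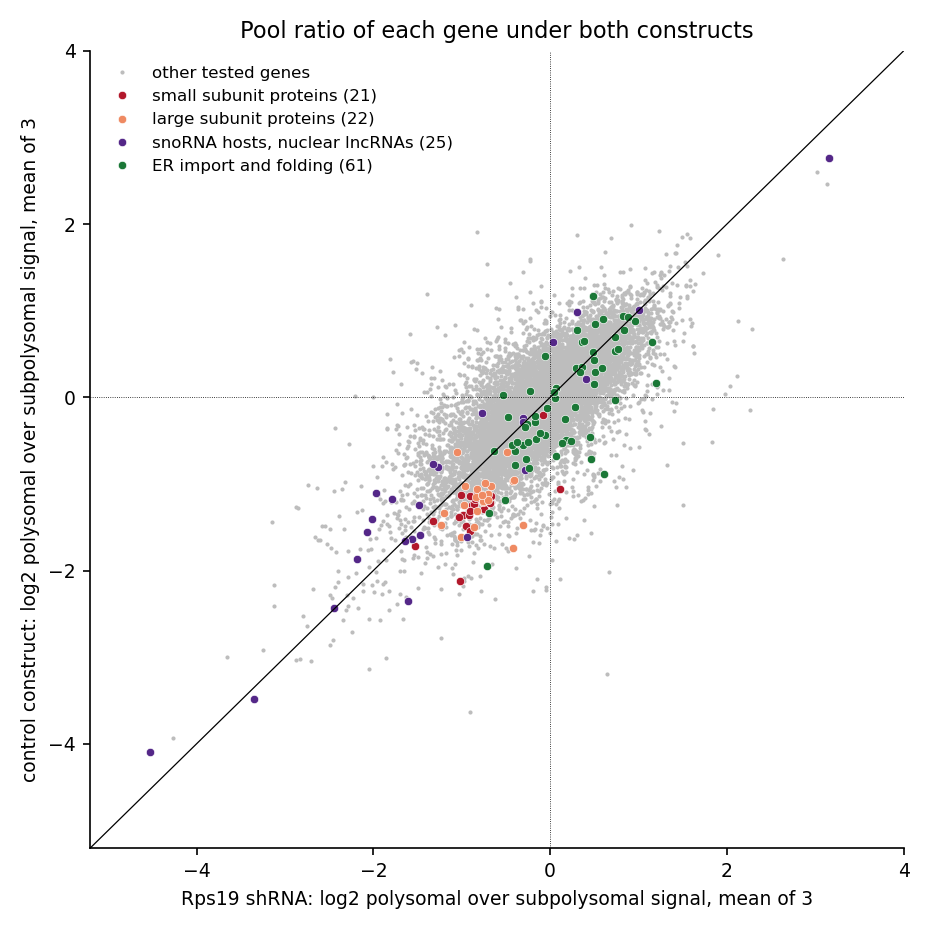
Mean log2 polysomal over subpolysomal signal of each tested gene with the Rps19 shRNA (horizontal axis) and with the control construct (vertical axis), with 4 gene lists in colour and the line of equal ratios. Small subunit genes lie below the line, with a list median of −0.91 with the Rps19 shRNA and −1.28 with the control construct.

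Ribosomal protein and other TOP mRNAs had higher ratios with the Rps19 shRNA than with the control construct, although few passed the test singly. All 21 tested small subunit genes had a higher ratio with the Rps19 shRNA than with the control construct, with a median difference of 0.37, as had 21 of 22 large subunit genes (0.39) and 17 of 19 other TOP mRNAs (0.44). Over all genes 51.1% had a higher ratio and the median difference was 0.01. The small subunit medians of the 3 Rps19 shRNA gradients lay above those of the control construct and of untransduced cells, which overlapped each other. They were −0.91, −0.96 and −0.82 with the Rps19 shRNA, against −1.42, −1.16 and −1.28 with the control construct and −1.82, −1.67 and −1.33 in untransduced cells. The Rpl11 shRNA gradients were not examined for this list. The spread of the whole ranking was alike in the gradients of the Rps19 shRNA and the control construct (SD over genes 0.694 to 0.746 against 0.676 to 0.77) and 0.676 to 0.856 in untransduced cells. The highest subpolysomal signal of an array was lower with the Rps19 shRNA (74690 to 82533) than with the control construct (88922 to 111758). It overlapped the range in untransduced cells (81822 to 144499). Its part in these differences was not tested. Gene by gene, 0 of the small subunit and 2 of the large subunit passed the test of the difference, Rpl37 (−0.41, −0.55 and −0.30, against −1.62, −1.80 and −1.82 with the control construct, adjusted p = 0.0301) and Rpl14 (−0.08, −0.41 and −0.42, against −1.55, −1.55 and −1.31, adjusted p = 0.0445). The background of that test was 0.869% of genes. Of proteasome genes 38 of 48 were higher with the Rps19 shRNA, with a median difference of 0.24, of cytosolic chaperones 36 of 47 (0.26) and of ribosome biogenesis factors 60 of 80 (0.16). Against untransduced cells the same counts were 34 of 48 (0.16), 26 of 47 (0.05) and 63 of 80 (0.15), where 52.4% of all genes were higher with a median difference of 0.02. In the chaperonin, Tcp1 rose (difference 0.86, SE 0.13, adjusted p = 0.0301), with −1.14, −1.05 and −1.03, against −1.93, −1.85 and −2.00 with the control construct. Of mitochondrial ribosomal proteins 31 of 76 were higher, with a median difference of −0.09, and Mrps24 and Mrps36 fell (differences −0.98 and −0.75, adjusted p = 0.0301 and 0.0419).

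Single genes that left their place in the ranking were few, and their calls were not stable. The ratio rose with the Rps19 shRNA over the control construct in 32 genes (0.29%) and fell in 64 (0.579%), 96 in all, and 1647 had an unadjusted p under 0.05. Leaving out any 1 gradient of either group left 0 genes, or 3 without ev replicate 1, and 0 genes passed in limma when only these groups entered the fit. The largest rises were in Gsdma, a pore-forming gasdermin, with 2.50, 0.98 and 2.02, against −1.07, −0.80 and 0.31 (difference 2.35, adjusted p = 0.0419), and in Paqr7, a progestin receptor, with 1.18, 1.60 and 1.71, against −0.86, 0.24 and −0.95 (2.02, adjusted p = 0.0419). Both had signals near background, in the dimmest of the 5 signal groups (mean log2 signals of 6.64 for Gsdma and 6.82 for Paqr7). Dnajc17 had −0.17, 0.56 and −0.31, against −1.54, −2.08 and −2.02 with the control construct. Igbp1, a partner of protein phosphatase catalytic subunits, had −0.37, −0.09 and 0.23, against −1.46, −1.53 and −1.46. Pigk, the catalytic subunit of the GPI transamidase, had 0.57, 0.48 and 0.76, against −0.80, −0.85 and −1.02. These 5 genes and the 5 below were chosen among those whose groups do not overlap, so that absence of overlap is no further support. With the mean of a gene's probe sets in limma, Gsdma, Dnajc17, Igbp1, Pigk and Siva1 missed the threshold. Their differences were then 1.53, 1.12, 0.83, 0.76 and −0.83 (adjusted p = 0.086, 0.115, 0.178, 0.218 and 0.0647). Paqr7 missed it in that setting too (2.02, adjusted p = 0.0572). Among the falls, Siva1 (difference −1.51, SE 0.24), the reductase Cyb5r4 (−1.38), the phosphatase inhibitor Ppp1r2 (−1.22), Eif1b (−1.22) and Lyrm2 of complex I assembly (−1.17) were the largest by the rule. Cyb5r4 had −0.93, −1.03 and −0.97, against 0.52, 0.31 and 0.38 with the control construct (adjusted p = 0.00871). Ppp1r2 had −0.18, −0.43 and −0.38, against 1.15, 0.75 and 0.78.

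**Figure D5:**
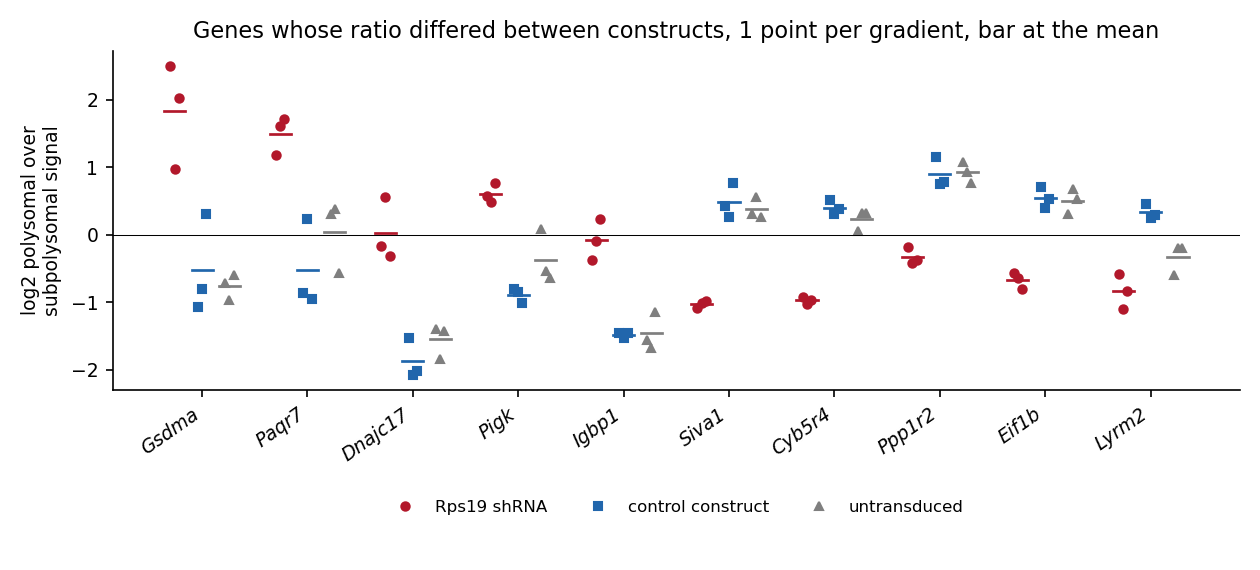
Log2 polysomal over subpolysomal signal (vertical axis) of the 5 genes that rose and the 5 that fell most with the Rps19 shRNA against the control construct, with 1 point per gradient and a bar at the mean, for the Rps19 shRNA (circles), the control construct (squares) and untransduced cells (triangles). Siva1 lies between −1.09 and −0.98 with the Rps19 shRNA and between 0.26 and 0.77 with the control construct.

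Of the 2613 genes called with both constructs, 36 lay on opposite sides, 28 of them toward the subpolysomal pool with the Rps19 shRNA and 8 toward polysomes. Of these 36 genes 22 passed the test of the difference between the constructs. In untransduced cells 19 of the 36 passed the threshold on the side of the control construct and 0 on that of the Rps19 shRNA. Against untransduced cells the ratio rose in 9 genes (0.0815%) and fell in 24 (0.217%), 33 in all (0.299%, 1476 at an unadjusted p under 0.05). Siva1 (difference −1.41), Cyb5r4 (−1.21), Ppp1r2 (−1.25), Eif1b (−1.18), Igbp1 (1.39) and Gsdma (2.59) passed there too. The 2 comparisons share the Rps19 shRNA gradients and are not independent. Leaving out 1 gradient at a time left 0 or 1 gene, except 56 without wt replicate 3. Lyrm2 had −0.59, −0.20 and −0.20 in untransduced cells and did not pass against them (adjusted p = 0.317).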

How the data were processed

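Signals of 45101 probe sets on 24 arrays are linear intensity values, made with MAS5 (version not given in the sources used here) according to the submitters' processing notes and deposited by the authors. Another deposited table holds each gradient's polysomal share of signal as a fraction, per the file headers, and the shares recomputed from the signals differed by at most 7.1e-10. Values were taken as log2 of the signal plus 7.8516 (0.1 of the median signal). Probe sets at or below the median mean log2 signal were removed. Of the probe sets 34958 have 1 gene symbol (34754 found by gene ID), and the brightest of each gene was kept.

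Ratios of all 12 gradients, those with the Rpl11 shRNA included, were fitted with limma 3.58.1 in R 4.3.3 (Python 3.11.15 for summaries), the group as the factor, moderated by eBayes, with Benjamini-Hochberg adjustment and a threshold of 0.05. The polysomal and subpolysomal arrays of a gradient deviated together (r of residuals 0.155 to 0.599 in 12 gradients), so each gradient is its own pair. The 2 arrays of a pair differ in highest signal, and precision rests on 3 gradients per group. The fit was tested on simulated data.

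The members, gene lists and tests were chosen with earlier results of these data known. Genes named are Rps19, Rpl11, Bag1 and Gata1, the 10 highest and lowest past the threshold, up to 4 per list with the smallest p, and 5 per direction where groups were compared and did not overlap. Not all are printed, and clones and predicted transcripts are left out. Start sequences are from RefSeq (GRCm38.p6). Missing values occur in 2 probe sets and on 6 arrays. Alternatives are described in the closing section.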

Additional observations from a re-analysis of the deposited data

Results flagged for a closer look

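The pool ratio differed between the Rps19 shRNA and the control construct in 96 genes, by limma's test of the difference itself. Among the named genes it was higher with the Rps19 shRNA in Gsdma (2.35 on the log2 scale), Paqr7 (2.02), Dnajc17 (1.90), Pigk (1.50) and Igbp1 (1.41). It was lower in Siva1 (−1.51), Cyb5r4 (−1.38), Ppp1r2 (−1.22), Eif1b (−1.22) and Lyrm2 (−1.17). These 10 genes were chosen among those whose groups do not overlap. Gsdma, Paqr7, Dnajc17, Pigk, Igbp1 and Siva1 missed the threshold with the mean of a gene's probe sets.

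Against untransduced cells the ratio differed in 33 genes. It was higher in Gsdma (2.59) and Igbp1 (1.39) and lower in Siva1 (−1.41), Ppp1r2 (−1.25), Cyb5r4 (−1.21) and Eif1b (−1.18). Both comparisons use the same Rps19 shRNA gradients, and both counts fell to 0 in limma when any 1 of those 3 gradients was left out.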

How the results depend on the processing

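Of the 112 named genes in the comparison of the pools, leaving out 1 gradient at a time gave 336 fits, of which 324 kept side and call, 12 missed the threshold and 0 reversed. Median centring reversed Rpl11 (0.229), Gata1 (0.338), Mrps36 (0.000419), Myc (0.179), Slc40a1 (0.206) and Slc3a2 (0.0699), and 20 more missed the threshold (Ei24 and the 19 named in the results). Quantile normalization of all arrays reversed Rpl11 (0.251) and Cd59a (−0.0262), and 6 missed the threshold (Rps2, Rps24, Rpl4, Rpl41, Oas2 and Gpx1). The mean of a gene's probe sets reversed Ebna1bp2 (−0.0134), Hbb-b2 (−1.10), Psma1 (−0.849) and Polr2e (−0.166), and 9 missed the threshold (Eif3m, Sp4, Fli1, Btg1, Hif1a, Trp53inp1, Cebpg, Azin1 and Psmg2). The causes were not tested. Of 32 lists, the side of the all-gene median changed in 11 under quantile normalization of all arrays, 10 with a filter at the upper quartile, 5 with the mean of probe sets and 3 with quantile normalization within pools.

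For the pools, the count of 4037 was 6285 (5932 toward polysomes, 353 not) under median centring, 2230 (1010 and 1220) with no replicate block, 895 with a ratio of at least 1, 6775 for each probe set on its own (chosen after seeing the data), and 2460 to 2952 (1234 to 1486 and 1226 to 1466) leaving out 1 gradient. The split was 57.8% toward polysomes under quantile normalization of all arrays and 39.6% with the mean of probe sets, against 48.1%.

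Against the control construct, the count of 96 was 0 under median centring, with no filter, with only the groups compared and with replicate numbers as a block, 399 (160 higher, 239 lower) with a filter at the upper quartile, 21 (6 and 15) with the mean of probe sets, and 0 to 3 leaving out 1 gradient (0 higher, 0 to 3 lower). A trended robust prior gave 18 higher. Bag1 passed there in 3 settings (adjusted p = 0.0158, 0.0469 and 0.0466). Against untransduced cells, the count of 33 was 0 with no filter, with only the groups compared and with the replicate block, 18 (3 and 15) under quantile normalization of all arrays, 50 (38 lower) within pools, 318 (139 and 179) at the upper quartile, 2 (0 and 2) with the mean of probe sets, and 0 to 56 leaving out 1 gradient (0 to 32 higher, 0 to 24 lower). Median centring gave 3 higher and 44 lower, an offset of 0.5 of the median signal 17 higher, no Rpl11 gradients 5 higher and the trended prior 2 higher. The Rps19 level difference ran from −1.59 to −1.30 and missed the threshold with only the groups compared (−1.53, adjusted p = 0.0504), and was −1.53 with the replicate block (adjusted p = 0.0119). Same-numbered gradients of different groups did not deviate together (r 0.0165 to 0.0293 between Rps19 shRNA and control construct, −0.0344 to 0.012 between Rps19 shRNA and untransduced cells), so numbers name gradients and do not pair them. Signal near the ceiling and among the dimmest genes limits single ratios.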

Other observations

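Gene families told apart by symbol alone gave further groups at the pools of Rps19-deficient cells, chosen after their values were seen and with no test. Of 57 tested Rab genes, small GTPases of membrane traffic, 19 lay toward polysomes and 7 toward the subpolysomal pool, with a median ratio of 0.19. Among all genes 17.6% lay toward polysomes and 19.0% toward the subpolysomal pool, with a median of −0.08. Of 32 Ddx genes, RNA helicases, the counts were 2 and 13, with a median of −0.31. Of 37 Zbtb genes, zinc finger repressors, they were 2 and 12 (−0.31). The 260 Zfp genes gave 45 and 40 (−0.04), close to the shares and the median of all genes. Of 30 Med genes, subunits of Mediator, 10 and 6 were called, with a median of −0.05 with the Rps19 shRNA, against 0.24 with the control construct and 0.31 in untransduced cells.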
